A study of Rattus norvegicus with 12 samples.

Results

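Interferon-stimulated genes are the genes that cells switch on when interferon binds its receptors, and 40 of them, listed by symbol, were followed in rat liver. A gene was included where a row of the array's annotation named that symbol alone, and the row with the highest mean over all arrays stood for it. This gave 36 of the 40 genes among 18166 genes measured. Rigi, Bst2, Eif2ak2 and Ddx60 were not analysed here under those names. Liver RNA came from 12 male obese Zucker rats (Crl:ZUC-Leprfa), all homozygous (fa/fa) for a defective leptin receptor, so that control and treated rats shared the obesity and no lean rats were compared. They were 5-6 weeks old at the start of feeding. For 4 weeks 6 rats ate a control diet and 6 a diet with 5% PSC, the labels' name for a supplement that the series title calls a biotechnologically produced oyster mushroom, and all were killed on day 29. Per the labels the trial held 24 rats, 12 per diet, and the 6 per diet profiled here were taken randomly from them. The question, per the title, was what this supplement does in the liver. Each rat gave 1 array (Affymetrix Rat Gene 2.0 ST), and the deposited values are log2 signals.

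Interferons come as type I (alpha and beta, made by most infected cells), type II (gamma, made mainly by natural killer and T cells) and lambda. Type I interferon activates JAK1 and TYK2, which lead a complex with STAT2 and IRF9 to a promoter element called the ISRE. Interferon gamma activates JAK1 and JAK2 and acts through the GAS element, and it induces IRF1, guanylate-binding proteins and antigen-processing genes such as Tap1. Most target genes respond to both kinds to some degree. In liver, hepatocytes, Kupffer cells and sinusoidal endothelial cells all respond to interferon.

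Most interferon-stimulated genes had lower signals in the livers of PSC-fed rats, by small amounts. Herc6, which belongs to a family of ubiquitin and ISG15 ligases, fell 1.52-fold, and Gbp5, a guanylate-binding protein gene, fell 2.26-fold. These were the 2 of 36 members that passed (limma, adjusted p below 0.05, n = 6 per diet), and 0 rose. Over all genes tested, 2.6% were called, 1.89% lower and 0.716% higher. At an unadjusted p below 0.05, 13 of the 36 members were lower and 0 higher, where 10.1% of all genes were lower and 9.02% higher. Of the 36 members, 31 had a log2 fold change (PSC minus control) below 0, against 46.1% of all genes. The median log2 fold change was -0.13 over the members and 0.013 over all genes. Members are not independent of each other, because they share regulators and arrays. The count of 13 was between 10 and 15 when any 1 array was left out. It was 6 without control replicates 1 and 4 together, the arrays on which 23 members had their highest value. That pair was picked after the data were seen. Leaving out high controls favours a lower count, as does a fit with fewer arrays. The count of 2 members called became 1 without any of 10 arrays (each but control replicate 2 and PSC replicate 4), and 3 without control replicate 2.

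**Figure D1:**
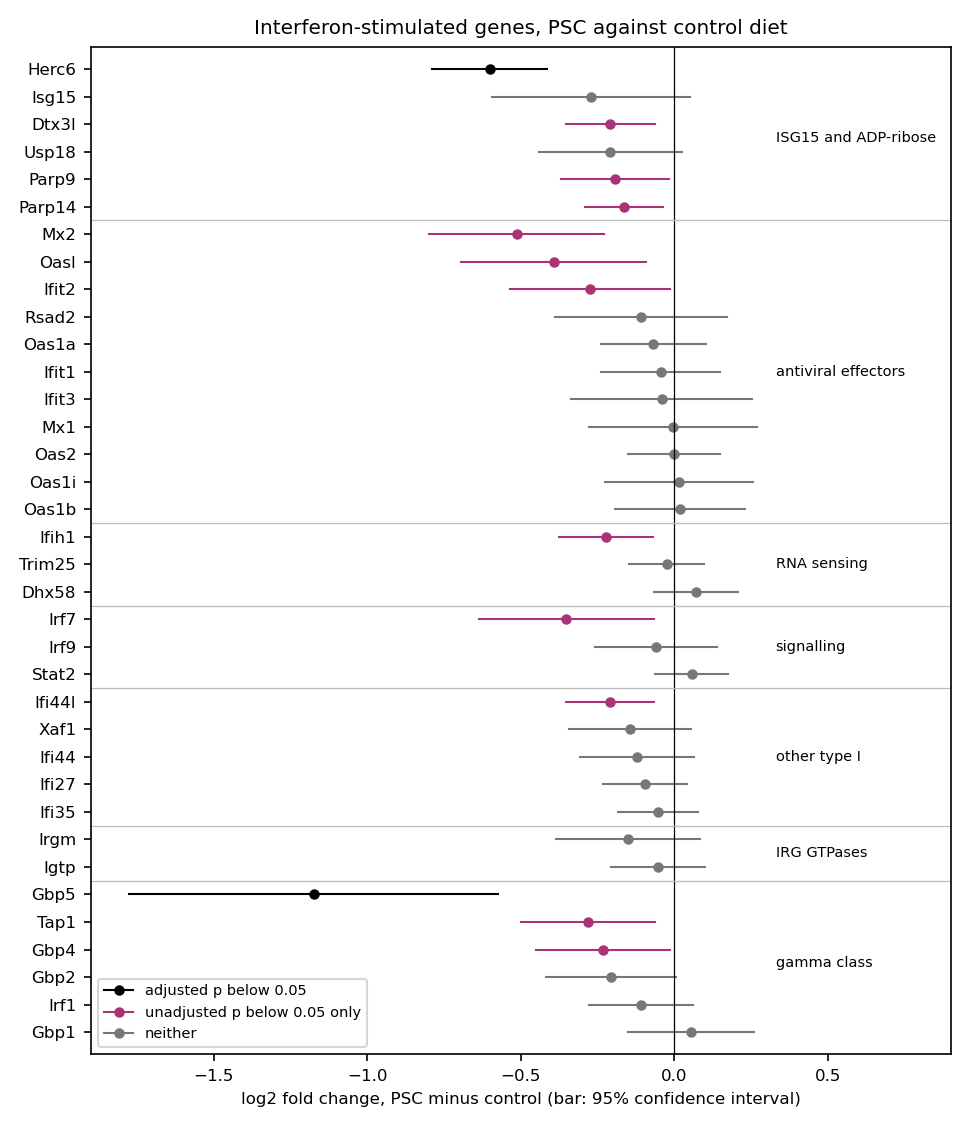
Log2 fold change (PSC minus control) of the 36 interferon-stimulated genes with 95% confidence intervals (6 arrays per diet), ordered by role. Herc6 and Gbp5 (black) passed at an adjusted p below 0.05, 11 more (magenta) had an unadjusted p below 0.05, and 31 of the 36 points lie left of 0.

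Many interferon targets carry an ISRE near the start site. Promoters are shown here for some members with an unadjusted p below 0.05 and for 3 Oas genes whose values lay near 0. RefSeq promoter sequences (build GRCr8) were found for 29 of the 36 members, and the 250 bases before each start site were searched on both strands. The ISRE core was searched as GAAANNGAAA and the GAS element as TTCNNNGAA, and no ISRE match overlapped a GAS match in a member. An ISRE core was present in 18 of the 29 members (62.1%) and in 3.29% of all 27457 promoters. A GAS match was present in 8 members (27.6%) and in 7.52% of all promoters. By class, the ISRE core was found in 14 of 23 type I members and in 4 of 6 interferon gamma members, and GAS in 7 of 23 and 1 of 6. The ISRE core was found in 7 of 11 members with an unadjusted p below 0.05 (63.6%) and in 11 of 18 others (61.1%). The last 120 bases before the start site follow, 5′ to 3′ on the gene's strand, with each ISRE core in capitals. The printed genes were not picked by rank of p and do not stand for all members. Left out with an unadjusted p below 0.05 were Dtx3l, Oasl and Parp9, without a core, and Tap1 and Gbp4, with 1 each. Members near 0 without a core, such as Mx1 and Trim25, were left out too, as was Ifit3, with 1. Gbp5, Irf7 and the first of 2 cores in Ifi44l match on the opposite strand, and in each Oas gene 2 cores overlap.
Gbp5: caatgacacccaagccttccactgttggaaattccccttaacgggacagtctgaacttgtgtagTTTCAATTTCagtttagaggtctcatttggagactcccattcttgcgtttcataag
Ifih1: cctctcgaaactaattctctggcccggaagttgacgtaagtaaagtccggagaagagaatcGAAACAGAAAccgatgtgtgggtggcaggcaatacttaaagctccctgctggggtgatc
Ifi44l: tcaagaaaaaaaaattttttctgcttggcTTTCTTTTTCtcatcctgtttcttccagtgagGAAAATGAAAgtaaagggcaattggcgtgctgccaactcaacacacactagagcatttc
Parp14: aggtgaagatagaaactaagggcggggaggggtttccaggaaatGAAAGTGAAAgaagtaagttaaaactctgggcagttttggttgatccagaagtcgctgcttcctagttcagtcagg
Irf7: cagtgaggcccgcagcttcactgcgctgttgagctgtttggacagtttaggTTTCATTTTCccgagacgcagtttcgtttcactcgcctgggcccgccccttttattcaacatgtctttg
Herc6: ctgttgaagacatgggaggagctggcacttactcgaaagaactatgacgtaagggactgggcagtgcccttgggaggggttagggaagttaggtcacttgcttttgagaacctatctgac
Oas1a: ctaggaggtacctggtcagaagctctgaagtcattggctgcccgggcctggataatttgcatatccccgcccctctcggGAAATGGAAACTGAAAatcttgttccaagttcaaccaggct
Oas1b: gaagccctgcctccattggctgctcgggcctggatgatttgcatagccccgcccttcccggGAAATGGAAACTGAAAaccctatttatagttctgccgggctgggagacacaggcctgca
Oas1i: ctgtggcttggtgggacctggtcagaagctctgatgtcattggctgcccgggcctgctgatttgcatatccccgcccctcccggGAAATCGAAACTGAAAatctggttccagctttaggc

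In GRCr8 these stretches lie at chr2:233910879-233910998, plus strand (Gbp5), chr3:67683969-67684088, minus strand (Ifih1), chr2:243328603-243328722, plus strand (Ifi44l), chr11:78408014-78408133, plus strand (Parp14) and chr1:205800024-205800143, minus strand (Irf7). That of Herc6 lies at chr4:88896994-88897113, minus strand. The Oas stretches lie at chr12:41330346-41330465, plus strand (Oas1a), chr12:41395853-41395972, minus strand (Oas1b) and chr12:41285106-41285225, plus strand (Oas1i). The ISRE core nearest the start began at position -56 in Gbp5, -59 in Ifih1 and in Ifi44l, -76 in Parp14 and -69 in Irf7, counted from the start site. In Oas1a, Oas1b and Oas1i it began at -35, -53 and -30, and the 3 genes share the arrangement of 2 overlapping cores. Herc6, with the smallest p of all members, had no match in the 250 bases searched, which says only that these letters are not in that window. A match is a sequence feature and not a measured binding site.

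The ISG15 and ADP-ribosylation genes held 4 of the 13 members with an unadjusted p below 0.05, and all 6 of them had values below 0. ISG15 is a ubiquitin-like protein that interferon induces, HERC-family ligases attach it or its relatives to other proteins, and USP18 removes it and also damps the type I receptor. Herc6 (transcript cluster 17791632) lay at 7.51 to 8.03 in controls (median 7.665) and at 7.00 to 7.23 in PSC-fed rats (median 7.175), in log2 signal. No PSC array reached the lowest control. Over all genes, 1.48% separated in this way with PSC lower and 0.71% with PSC higher, and Herc6 was the only 1 of the 36 members to do so. The means were 7.74 ± 0.21 and 7.14 ± 0.09 (SD, n = 6). The log2 fold change was -0.60 (SE 0.09, adjusted p = 0.0041), and it passed in each of the 25 alternative fits.

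Isg15 itself lay at 4.81 to 5.71 in controls and at 4.64 to 5.19 in PSC-fed rats, with medians of 5.145 and 4.89. The diets overlapped widely, and its log2 fold change of -0.27 (SE 0.15) did not pass (adjusted p = 0.346). Usp18 had -0.21 (SE 0.11, adjusted p = 0.319) on the cluster used and -0.48 (SE 0.16, adjusted p = 0.113, adjusted over all clusters with 1 symbol) on its other cluster, 17786684. Both clusters of Usp18 thus had values of the same sign and neither passed.

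Parp9, Dtx3l and Parp14 are next to each other on chromosome 11 and encode ADP-ribosylating enzymes and, in DTX3L, the ubiquitin ligase that partners PARP9. Dtx3l lay at 7.68 to 8.02 in controls (median 7.815) and at 7.47 to 7.76 in PSC-fed rats (median 7.615), and 4 PSC arrays were below every control. Its log2 fold change was -0.21 (SE 0.07, unadjusted p = 0.0077, adjusted p = 0.111). Parp14 had -0.16 (SE 0.06, adjusted p = 0.154) and Parp9 -0.19 (SE 0.08, adjusted p = 0.217). The PSC arrays lay at 7.38 to 7.84 against 7.68 to 8.06 in controls for Parp9, and at 7.90 to 8.05 against 7.99 to 8.28 for Parp14. None of the 3 neighbours passed over all genes, and for each the diets overlapped.

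Antiviral effectors are the proteins that block viral replication directly, such as MX GTPases, IFIT proteins that bind foreign RNA ends, and viperin (Rsad2). OAS proteins also belong here, and those that are active enzymes sense double-stranded RNA and make an activator of RNase L. Enzyme activity was not measured. Of 11 measured effectors, 0 passed, 3 had an unadjusted p below 0.05 and a lower value (Mx2, Oasl and Ifit2), and the median log2 fold change was -0.045. Mx2 lay at 7.13 to 8.05 in controls (median 7.925) and at 7.13 to 7.45 in PSC-fed rats (median 7.295). Control replicate 2, at 7.13, was the only control within the PSC range, and the next control lay at 7.73. The log2 fold change was -0.51 (SE 0.13, adjusted p = 0.053). Without control replicate 2 it was -0.65 (adjusted p = 0.00299), past the threshold, and it also passed with genes of mean signal below 5 left out (adjusted p = 0.0327) and with a trended prior (adjusted p = 0.0357).

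Oasl lay at 5.03 to 5.97 in controls (median 5.51) and at 4.6 to 5.29 in PSC-fed rats (median 5.16), with -0.39 for the log2 fold change (SE 0.14, adjusted p = 0.146). Ifit2 lay at 7.10 to 7.89 (median 7.53) and at 6.92 to 7.51 (median 7.225), with -0.28 for the log2 fold change (SE 0.12, adjusted p = 0.235). For both genes the diets overlapped, with all 6 PSC arrays below the control median.

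The other 8 effectors had log2 fold changes between -0.11 (Rsad2) and 0.018 (Oas1b). Mx1 had -0.005, with a 95% confidence interval of -0.28 to 0.27. Oas2 had -0.0017 (-0.15 to 0.15), Oas1a -0.07 (-0.24 to 0.10) and Oas1i 0.015 (-0.22 to 0.25). Ifit3 had -0.04 and Ifit1 -0.045. The signs of Mx1, Oas2 and Oas1b changed with the normalization, as their values are near 0. Ifit1 had a mean log2 signal of 2.55, lower than that of all but 6.96% of genes, a range in which the array shows little. Signals of different genes also reflect their probes and were not compared as levels.

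**Figure D2:**
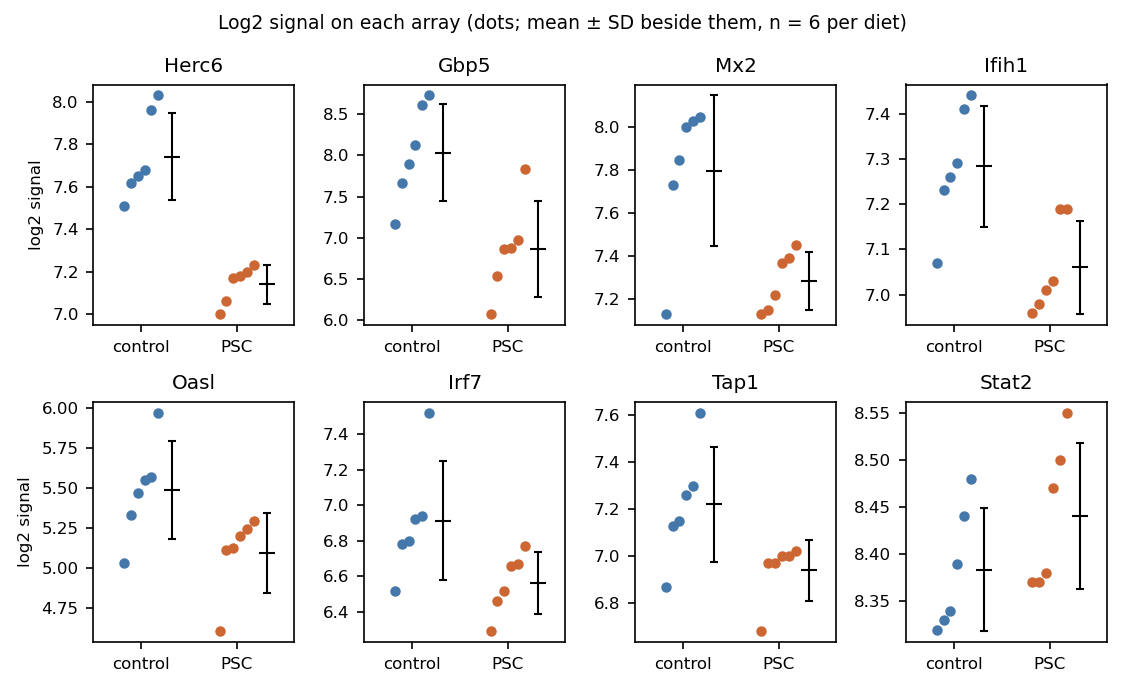
Log2 signal of 8 members on each of the 6 control and 6 PSC arrays (dots, sorted within a diet), with mean ± SD. The diets do not overlap for Herc6, overlap through PSC replicate 4 for Gbp5 and control replicate 2 for Mx2, and overlap for Stat2, where the PSC mean is the higher by 0.06.

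The sensors and signalling genes held 1 member each with an unadjusted p below 0.05. Ifih1 encodes MDA5, a cytosolic sensor of long double-stranded RNA. It lay at 7.07 to 7.44 in controls (median 7.275) and at 6.96 to 7.19 in PSC-fed rats (median 7.02), and 4 PSC arrays were below every control. The log2 fold change was -0.22 (SE 0.07, adjusted p = 0.109). Dhx58, which encodes the related helicase LGP2, had 0.07 (SE 0.06, adjusted p = 0.578), and Trim25, a ubiquitin ligase of the RIG-I pathway, had -0.025 (SE 0.06, adjusted p = 0.842), with a sign that turned under quantile and cyclic loess normalization. The gene for RIG-I stands in the annotation as Rig1 (a synonym is Ddx58), outside the list of symbols. It had -0.10 (SE 0.06, adjusted p = 0.355) and is not in the counts.

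Irf7 encodes the transcription factor that amplifies type I interferon production. It lay at 6.52 to 7.52 in controls (median 6.86) and at 6.29 to 6.77 in PSC-fed rats (median 6.59). Control replicate 4 was the highest array, and all 6 PSC arrays were below the control median. The log2 fold change was -0.35 (SE 0.13, adjusted p = 0.167), and -0.23 without control replicate 4 (adjusted p = 0.254). The genes for the other parts of the type I complex had smaller values. Stat2 had 0.06 (95% confidence interval -0.06 to 0.18) and Irf9 -0.06 (-0.26 to 0.14).

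Of the remaining type I members, 0 of 7 passed and all had values below 0. Ifi44l, a cytoplasmic protein gene of little known function, lay at 6.17 to 6.39 in controls (median 6.28) and at 5.92 to 6.24 in PSC-fed rats (median 6.09), with 5 PSC arrays below every control. Its log2 fold change was -0.21 (SE 0.07, adjusted p = 0.108). Its neighbour Ifi44 had -0.12 (SE 0.09), Xaf1, a proapoptotic gene, -0.145 (SE 0.09), Ifi27, with the brightest signal of the members (mean 11.4), -0.10 (SE 0.06), and Ifi35 -0.05 (SE 0.06). The sign for Ifi35 turned with a further quantile normalization. Irgm and Igtp, immunity-related GTPases that act on vacuoles of intracellular microbes, had -0.15 (SE 0.11) and -0.05 (SE 0.07). For these last 6 genes the diets overlapped, and the adjusted p went from 0.42 (Xaf1) to 0.721 (Igtp).

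Genes grouped as interferon gamma targets (Gbp1, Gbp2, Gbp4, Gbp5, Irf1 and Tap1) held the largest single difference. Guanylate-binding proteins are GTPases that coat intracellular pathogens and help activate inflammasomes. Gbp5 (transcript cluster 17743150) lay at 7.17 to 8.73 in controls (median 8.015) and at 6.07 to 7.84 in PSC-fed rats (median 6.865). Of the PSC arrays 5 were below every control, and PSC replicate 4, at 7.84, lay among the controls. The means were 8.03 ± 0.59 and 6.86 ± 0.58 (SD, n = 6). The log2 fold change was -1.18 (SE 0.28, adjusted p = 0.0394). The adjusted p was 0.0181 once control replicate 2 was left out. It was 0.0102, with a log2 fold change of -1.37, once PSC replicate 4 was left out. The call was lost without any of the other 10 arrays, with an adjusted p from 0.0555 (without control replicate 3) to 0.099 (without control replicate 1), while the log2 fold change kept to -1.02 or below in all 12 of these fits.

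Tap1, a subunit of the peptide transporter that loads MHC class I, lay at 6.87 to 7.61 in controls (median 7.205) and at 6.68 to 7.02 in PSC-fed rats (median 6.985). Its log2 fold change was -0.28 (SE 0.10, adjusted p = 0.154). Gbp4 lay at 4.11 to 4.52 (median 4.425) and at 3.74 to 4.37 (median 4.17), with -0.23 (SE 0.10, adjusted p = 0.233). Gbp2 had -0.21 (SE 0.10, unadjusted p = 0.054, adjusted p = 0.27). Irf1, the first-wave transcription factor of the gamma response, had -0.11 (SE 0.08, adjusted p = 0.475), and Gbp1 0.05 (SE 0.10, adjusted p = 0.795). All 6 PSC arrays lay below the control median for Tap1, Gbp4, Gbp2 and Irf1, and the ranges overlapped.

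Set side by side, 10 of 30 type I members and 3 of 6 gamma members were lower at an unadjusted p below 0.05 and 0 of either class higher. Over all genes, 10.1% were lower and 9.02% higher. The median log2 fold change was -0.115 in the type I class, with a range of -0.60 to 0.07, and -0.22 in the gamma class, with a range of -1.18 to 0.05. The ranges overlap, the classes hold 30 and 6 genes, and the difference between them was not tested. With Igtp and Irgm moved to the gamma class, the medians were -0.115 and -0.18.

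The mean of each class on each array, after every gene was centred over the 12 arrays, showed how single rats contributed. For the type I class the controls lay between -0.047 and 0.231 and the PSC arrays between -0.174 and -0.0108. Control replicate 4 was highest at 0.231, and control replicates 2 and 6, at -0.047 and -0.0115, lay within the PSC range. PSC replicates 2 and 4 were lowest at -0.172 and -0.174. For the gamma class, 5 controls lay between 0.125 and 0.298, and control replicate 2, at -0.109, lay among the PSC arrays (-0.299 to -0.062).

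**Figure D3:**
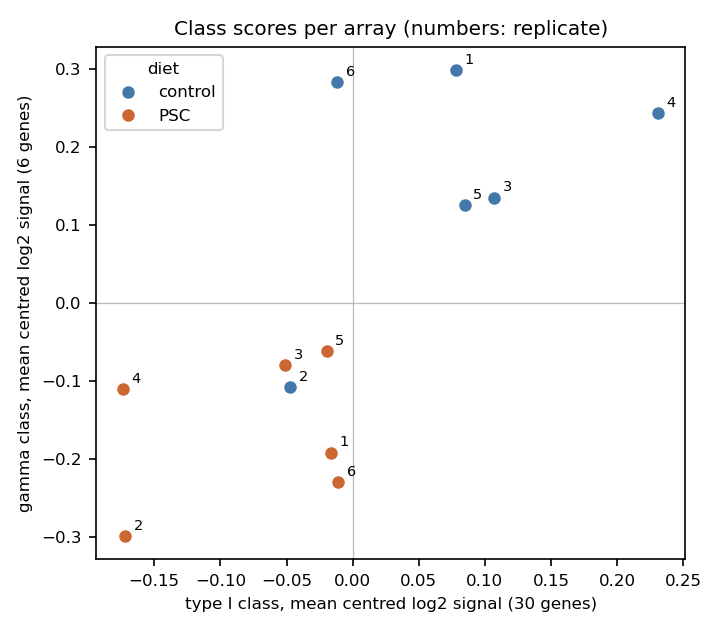
Mean centred log2 signal of the 30 type I members (horizontal) against that of the 6 gamma members (vertical) on each array, numbered by replicate. All PSC arrays lie below 0 on both axes, as does control replicate 2, and control replicate 6 has a gamma score of 0.283 with a type I score of -0.0115.

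Single arrays were high or low for many members. Control replicate 4 had the highest value of all 12 arrays for 13 of the 36 members and control replicate 1 for 10. PSC replicate 4 had the lowest for 13 and PSC replicate 2 for 9, with ties counted for each array. Within the controls, replicate 2 was lowest for 16 members and replicate 6 for 14. Single rats thus stood high or low for many members at once, within a diet as well as between diets.

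**Figure D4:**
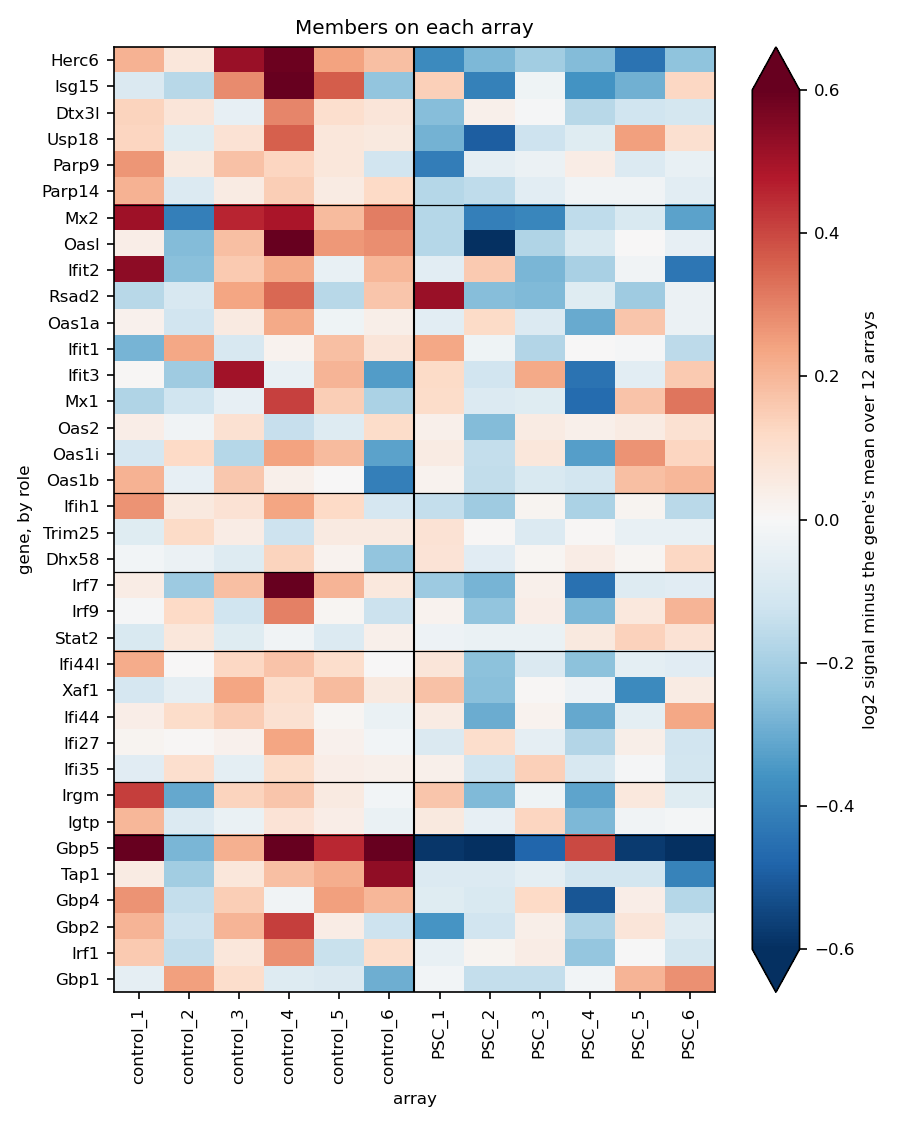
Log2 signal of each of the 36 members on each array after subtracting the gene's mean over the 12 arrays (colour scale cut at -0.6 and 0.6), with genes grouped by role and a line between the diets. Control replicate 4 is mostly red and PSC replicates 2 and 4 mostly blue, and the Gbp5 row has the strongest contrast.

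Several members are gene neighbours, and close relatives did not always have like values. Of the 36 members, 18 lie within 10 protein-coding genes of another in the order of GRCr8, in 6 groups: the Ifit genes, Mx1 with Mx2, Parp9 with Dtx3l and Parp14, 4 Oas genes, 4 Gbp genes, and Ifi44 with Ifi44l. The differences between relatives were tested on each array's log2 difference of 2 genes, compared between diets by an exact two-sided permutation test over all 924 assignments of the arrays to the diets, for all 26 pairs within 8 families. These families were chosen after the values were seen. No pair passed after adjustment over the 26 pairs , where the lowest adjusted p was 0.158. Before adjustment, 7 pairs were below 0.05. Mx1 exceeded Mx2 in log2 fold change by 0.51 (SE 0.20, exact permutation p = 0.0303, n = 6 per diet). Gbp1 exceeded Gbp5 by 1.23 (SE 0.40, exact permutation p = 0.0173, n = 6 per diet), and Oas2 exceeded Oasl by 0.39 (SE 0.16, exact permutation p = 0.0173, n = 6 per diet). Probes for the Gbp, Oas1, Ifit and Mx genes may bind transcripts of relatives, which would bring their values closer.

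Of 11 listed genes for the interferons themselves 8 were measured, with mean log2 signals from 2.49 (Ifnk) to 5.88 (Ifna2) and a median of 3.78, and 0 passed. All 8 had values above 0, between 0.035 and 0.23, as had 9783 of all 18166 genes. The median over all genes was 0.013, and -0.027 with genes of mean signal below 5 left out, so genes of low signal lay higher as a set. Ifng had 0.15 (SE 0.10), Ifnb1 0.11 (SE 0.06), and Ifna5 and Ifnk, with 0.23 (SE 0.11, unadjusted p = 0.0482) and 0.14 (SE 0.06, unadjusted p = 0.0264), had the smallest p. No detection calls come with the values, so that presence of these transcripts cannot be stated.

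Among receptors and kinases 1 of 9 measured genes fell and 0 rose, where 1.89% of all genes were called lower and 0.716% higher. Ifngr2, the signalling chain of the interferon gamma receptor, lay at 7.36 to 7.71 in controls (median 7.595) and at 6.88 to 7.37 in PSC-fed rats (median 7.14), and 1 PSC array reached into the control range. The log2 fold change was -0.41 (SE 0.09, adjusted p = 0.0267). It lost the threshold without control replicate 1, 4 or 6 or PSC replicate 1, 5 or 6, with adjusted p values of 0.0699, 0.0611, 0.0609, 0.0521, 0.0594 and 0.0588. Ifngr1, the ligand-binding chain, had -0.19 (SE 0.07, adjusted p = 0.149). Il10rb, a chain of the lambda interferon receptor that other cytokines share, had -0.37 (SE 0.10, adjusted p = 0.0715), and Stat3 -0.30 (SE 0.09, adjusted p = 0.074). The type I receptor gene Ifnar1 had -0.10 and the kinase genes Jak1, Jak2 and Tyk2 had 0.04, 0.01 and 0.07.

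Upstream of interferon production, 1 of 13 measured sensing genes fell and 0 rose (1.89% and 0.716% of all genes). Ikbke, a kinase that activates IRF3 and IRF7, lay at 7.11 to 7.29 in controls and at 6.75 to 7.01 in PSC-fed rats, without overlap (1.48% of all genes). Its log2 fold change was -0.35 (SE 0.06, adjusted p = 0.0124), and it passed in all 12 fits without 1 array. The double-stranded RNA receptor gene Tlr3 had -0.255 (SE 0.08, adjusted p = 0.106), and Traf3, an adaptor, -0.20 (SE 0.06, adjusted p = 0.11). Of 10 feedback inhibitors 0 passed. Ptpn2, a phosphatase that acts on JAK1, had -0.23 (SE 0.08, adjusted p = 0.139), Socs3, which blocks STAT3 and JAK signalling, -0.26 (SE 0.16, adjusted p = 0.387), and Pias1 -0.065 (SE 0.06, adjusted p = 0.565).

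Of 29 other antiviral targets, 3 fell and 0 rose (1.89% and 0.716% of all genes). Ifitm3, a membrane protein that blocks virus entry, lay at 7.78 to 8.33 in controls and at 7.04 to 7.73 in PSC-fed rats, without overlap (1.48% of all genes). Its log2 fold change was -0.66 (SE 0.12, adjusted p = 0.0145), and it passed in all 12 fits without 1 array. Trim21, a cytosolic antibody receptor and ubiquitin ligase, and Lgals3bp, a secreted glycoprotein gene, had -0.33 (SE 0.08, adjusted p = 0.0353) and -0.555 (SE 0.14, adjusted p = 0.0454). Each kept its call in 3 of the 12 fits without 1 array. For Trim21 these were the fits without control replicate 2, PSC replicate 3 or PSC replicate 4, and for Lgals3bp those without control replicate 2, PSC replicate 2 or PSC replicate 4. Without another array the adjusted p was up to 0.0839 for Trim21 (without control replicate 1) and up to 0.0961 for Lgals3bp (without control replicate 4). At an unadjusted p below 0.05, 10 of the 29 were lower and 2 higher, where 10.1% of all genes were lower and 9.02% higher. The 2 higher were Tor3a, which had the value farthest from 0 in the list (0.94, SE 0.27, adjusted p = 0.0759), and Ifitm1 (0.24, SE 0.09, adjusted p = 0.155).

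Of 21 genes of antigen presentation and chemokines that interferon gamma induces, 0 passed. At an unadjusted p below 0.05, 4 were lower and 4 higher, where 10.1% of all genes were lower and 9.02% higher. The peptide-loading genes Tapbp and Tap2 had -0.32 (SE 0.09, adjusted p = 0.0755) and -0.30 (SE 0.09, adjusted p = 0.0759), and the adhesion molecule gene Icam1 -0.37 (SE 0.11, adjusted p = 0.0771). The chemokine gene Cxcl9 had 0.49 (SE 0.18, adjusted p = 0.157), with Ciita, Ido1 and Irf8 also above 0. Of the 21 genes, 16 had values below 0 and 5 above, with a median of -0.125, where 46.1% of all genes were below 0. The median log2 signal of this list was 7.45, and genes with a mean signal of at least 5 had a median log2 fold change of -0.027. Genes known as gamma targets thus lay on both sides of 0, with more of them below.

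**Figure D5:**
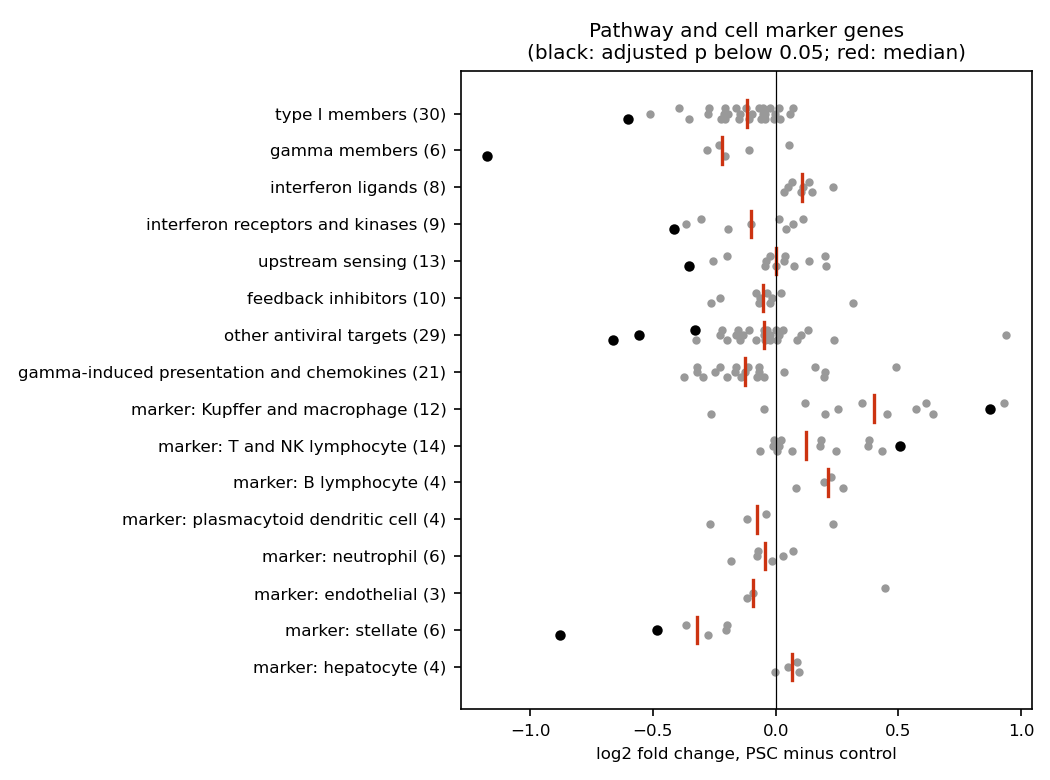
Log2 fold change (PSC minus control) of every measured gene of the members, pathway lists and cell marker lists (number of genes in brackets), with called genes in black and the list median in red. The medians of the member classes lie below 0, at -0.115 and -0.22, and those of the macrophage and lymphocyte marker lists above 0.

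Among markers of liver and immune cell types, 2 rose and 2 fell, where 0.716% of all genes were called higher and 1.89% lower. The markers' part in the results above was not tested. Liver markers checked the tissue: Ttr, a hepatocyte gene, had a mean log2 signal of 12.6, and 0 of 4 hepatocyte markers passed. Of 12 Kupffer cell and macrophage markers 1 rose, Cd163 (0.87, SE 0.21, adjusted p = 0.0436). At an unadjusted p below 0.05, 7 were higher, where 9.02% of all genes were, and the median was 0.40. Control replicate 1 had the lowest mean centred signal of this list (-0.744, next control -0.298), and without it the median was 0.24. Cd163 kept its call in 4 of the 12 fits without 1 array (without control replicate 1 or 2 or PSC replicate 2 or 4), and elsewhere had an adjusted p up to 0.0885 (without PSC replicate 5). The mean centred signal of this list was -0.744 to 0.0749 in controls and -0.0393 to 0.359 in PSC-fed rats. Of 14 T and natural killer cell markers 1 rose, Nkg7, a granule gene (0.51, SE 0.11, adjusted p = 0.0266). At an unadjusted p below 0.05, 7 of the 14 were higher, where 9.02% of all genes were. These were Nkg7, Prf1, Ccl5, Klrd1, Gzma, Cd8a and Ncr1. The others, Cd3d, Cd3e, Cd3g, Cd2, Cd4, Lck and Gzmb, had values from -0.063 (Gzmb) to 0.065 (Cd3d). The list's median log2 signal was 4.31, and genes of low signal lay higher as a set. The list median was 0.12, and the mean centred signal was -0.176 to 0.0018 in controls and 0.0104 to 0.154 in PSC-fed rats. Nkg7 lost its call without control replicate 1 or 6 or PSC replicate 5 or 6, with adjusted p values of 0.0699, 0.0596, 0.0592 and 0.0616. Among 4 B cell markers 0 passed and 3 were higher at an unadjusted p below 0.05 (9.02% of all genes). The median was 0.21, with ranges of -0.132 to -0.0719 and -0.0369 to 0.271, and Cd79a had 0.275 (SE 0.08).

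Of 6 stellate cell markers 2 fell (1.89% of all genes), Dcn (-0.88, SE 0.16, adjusted p = 0.0144) and Rgs5 (-0.48, SE 0.11, adjusted p = 0.0314). At an unadjusted p below 0.05, 5 of the 6 were lower, where 10.1% of all genes were. The median was -0.32, and the mean centred signal was 0.0429 to 0.363 in controls and -0.359 to 0.0879 in PSC-fed rats. Rgs5 kept its call in 3 of 12 fits without 1 array (without control replicate 2 or PSC replicate 2 or 4), with an adjusted p up to 0.0765 in the others (without control replicate 1), and Dcn in all 12. For 4 plasmacytoid dendritic cell markers, 6 neutrophil and 3 endothelial markers 0 passed and the ranges of the 2 diets overlapped, with medians of -0.077, -0.045 and -0.093. In these the smallest p belonged to Tcf4 (-0.27), S100a8 (-0.18) and Lyve1 (0.44). With no detection calls, no marker can be said to be at 0. In whole liver, fewer cells of a type and less RNA per cell cannot be told apart.

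Across the series the arrays were alike, with median log2 signals of 4.71 to 4.85 and correlations of 0.986 to 0.994. RNA integrity numbers were 8.01 ± 0.38 over all samples (SD, n = 12), given for no single array. Precision is limited by how many arrays there are, and the rats were housed 2 per cage, with cage mates not named in the labels, so that p-values take the rats as independent. No scan date or slide is given in the sources used here, so that batches of arrays were not tested.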

How the data were processed

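Per the submitters' processing notes, the authors used RMA in Expression Console, and the values they deposited are log2 signals for 30347 transcript clusters. RMA as a method corrects background, normalizes quantiles and combines probes by median polish, which makes the arrays' distributions alike and shrinks differences of genes with low signal. Software version and filters: not given in the sources used here. The deposited values were not normalized again, except in the alternatives.

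Gene symbols came from the platform annotation: 18511 clusters have 1 symbol, 575 several and 11261 none. A gene's cluster with the highest mean stood for it, which left 18166 genes. Samples were grouped by title. Each gene was fitted with a linear model on diet and empirical Bayes moderation (limma 3.58.1, R 4.3.3). Two-sided p-values were adjusted by Benjamini-Hochberg across the 18166 genes, with a threshold of 0.05. The test was checked on simulated data in which genes varied independently and the shifts were larger than most members' differences. That check does not cover genes that vary together or rats that shared a cage. Pairs of related genes were compared by exact permutation (scipy 1.17.1), and plots were drawn with matplotlib 3.10.9.

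Members and lists were chosen with earlier results of these data known. Named with values were members with an adjusted or unadjusted p below 0.05, the 2 with the smallest p in each role, and those with the highest and lowest signal. In pathway lists the called genes and the 3 with the smallest p were named, and in marker lists the 1 with the smallest p. Other genes were named after their values were seen. The type I class holds all members but Gbp1, Gbp2, Gbp4, Gbp5, Irf1 and Tap1. Irf8 stands in 2 lists. The proteins' roles are background.

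Alternatives were another quantile normalization, cyclic loess, median centring, a filter on mean signals below 5, a trended or robust prior, weighted arrays, a replicate block, all clusters, the mean of a gene's clusters, other thresholds, leaving out each array and moving Igtp and Irgm. Leaving out pairs of arrays, and list medians without each array, were added after seeing the data.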

Additional observations from a re-analysis of the deposited data

Results flagged for a closer look

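An array far from the other 5 of its diet was found in 7 of 72 groups of 6 arrays (36 members in 2 diets), by the gap to the nearest array over the group's range. Chance flags about 1 in 20 groups. In controls, Mx2 was low in replicate 2 (7.13, nearest other array 7.73), and Ifi27 was high in replicate 4 (11.62, nearest 11.41). In PSC-fed rats, Oasl and Oas2 were low in replicate 2 (4.6 with 5.11 nearest, and 4.66 with 4.95 nearest). Tap1 was low in PSC replicate 6 (6.68, nearest 6.97), and Parp9 was low in PSC replicate 1 (7.38, nearest 7.71). Rsad2 was high in PSC replicate 1 (5.65, nearest 5.10), the highest of all 12 arrays for that gene.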

How the results depend on the processing

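The direction of Herc6, Gbp5, Mx2 and the class medians held in every alternative run, and Herc6 passed in all 25. Of the 36 members, 25 kept their sign throughout, Ifi44 had a difference of 0 without PSC replicates 2 and 4, and 10 with values near 0, none of them called, changed sign at least once. The count of members called lower was 3 with a mean log2 signal of at least 5, a trended prior or an adjusted p below 0.1, 1 with all transcript clusters, 13 at an unadjusted p below 0.05 and 1 without control replicates 1 and 4 together or PSC replicates 2 and 5 together (main count 2). The count of all genes called was 769 with a mean log2 signal of at least 5, 94 with a replicate block, 254 with all clusters, 1140 at an adjusted p below 0.1, 3470 at an unadjusted p below 0.05, 25 without control replicates 1 and 4, and 225 without PSC replicates 2 and 5 (main count 473). Members lower at an unadjusted p below 0.05 were 6 without control replicates 1 and 4. The count of pathway genes called lower (main count 5) was 11 with a mean signal of at least 5, 9 with a trended prior, 0 with a replicate block, where Ikbke (adjusted p = 0.0504) and Ifitm3 (adjusted p = 0.0521) had the smallest, 3 with all clusters, 11 at an adjusted p below 0.1, 22 at an unadjusted p below 0.05, 0 without control replicates 1 and 4 and 8 without PSC replicates 2 and 4. The count of pathway genes called higher (main count 0) was 1, 8 and 2 at an adjusted p below 0.1, an unadjusted p below 0.05 and without PSC replicates 2 and 4. Fewer arrays enter the last fits, and the cause was not tested elsewhere.

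Leaving out 1 array at a time gave 142 (without control replicate 1) to 735 (without PSC replicate 4) genes called, 1 to 3 members called lower, 10 to 15 lower at an unadjusted p below 0.05, and 29 to 33 below 0. The class medians went from -0.137 to -0.087 (type I) and from -0.268 to -0.171 (gamma), and pathway genes called were 2 to 8 lower and 0 to 1 higher. Same-numbered arrays did not deviate together (correlations -0.151 to 0.111). Such correlations cannot exclude that the replicate numbers pair rats in some way, and the main fit took the rats as unpaired. With a replicate block, 2 members were called lower and 11 were lower at an unadjusted p below 0.05. No detection call or background level was available, which limits what can be said of dim genes such as Ifit1.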
